A study of Rattus norvegicus with 6 samples.

Results

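5 genes for G protein-coupled receptors of the striatum were followed across the cells of the rat nucleus accumbens: the adenosine receptors Adora2a (ENSRNOG00000001302) and Adora1 (ENSRNOG00000003442), and the orphan receptors Gpr6 (ENSRNOG00000049580), Gpr52 (ENSRNOG00000055673) and Gpr149 (ENSRNOG00000014793). They were taken by their symbols, whatever their values, and all 5 were found among the 25629 genes of the deposited count matrices. Their levels were compared between cell classes, and between rats given saline and rats given naloxone, an antagonist of opioid receptors. The question that the second comparison addresses is how nuclei of this region differ after naloxone in animals that had taken heroin.

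Single-nucleus RNA sequencing counts RNA molecules in nuclei rather than whole cells, so the values are nuclear RNA and say nothing of receptor protein. The samples are 3 libraries from rats injected with saline (replicates 1 to 3) and 3 from rats injected with naloxone (replicates 4 to 6). All rats were Sprague-Dawley adults of postnatal day 90 to 120. Every animal, those given saline included, had self-administered heroin: 7 days on a fixed-ratio 1 schedule, 4 days on a fixed-ratio 3 schedule, a progressive ratio session on day 12, and fixed-ratio 3 again on days 13 and 14. Brains were collected 1 hour after the injection, and bilateral punches 2 mm deep were taken from frozen tissue. No heroin-free group is among the samples used here, so both groups carry the heroin history. Tissue of 12 rats, 6 male and 6 female, was combined into 6 libraries, each a pool of both sexes. The labels do not say which rats went into which library, and the p-values below measure the spread between pooled libraries.

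In the striatum, medium spiny neurons are the main neuron type and fall into those that express the dopamine receptor Drd1 and those that express Drd2. Adora2a encodes an adenosine receptor that couples to stimulatory G proteins, raises cAMP, and is known from Drd2 neurons, where it opposes Drd2 signalling. Adora1 encodes a receptor that couples to inhibitory G proteins, lowers cAMP, and is widespread on neurons and glia. Gpr6 and Gpr52 encode orphan receptors that raise cAMP with no added ligand and are known for expression in Drd2 neurons. Gpr149 encodes an orphan receptor of which less is known. Adenosine is made outside cells from ATP by ecto-enzymes such as Nt5e and Entpd3, carried across membranes by the Slc29a transporters, and removed inside cells by Adk.

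The files hold 64260 barcodes, 8094 to 15020 per library, with 5.57e+07 to 7.63e+07 UMIs (counted RNA molecules) per library. After filters and removal of called doublets, 58960 nuclei remained, with a median of 4205 to 6433 UMIs per nucleus by library, and 40974 of them fell into 17 classes named from marker genes. A further 12424 nuclei stayed in unnamed clusters, and 5562 in clusters set aside as mixed, because over 10% of their nuclei held UMIs of both Xist and Y-linked genes or because they joined neuronal and glial markers. The 5 receptors were kept out of the markers and of the genes used for clustering. Levels are given as CPM, the UMIs of a gene over all UMIs of that class in that library, scaled to the same total, as mean ± SD over 6 libraries. Of 63796 different barcode sequences, 463 occurred in more than 1 library. Spiny neurons were the main neurons found, among them 5634 Drd1-like and 5178 Drd2-like nuclei, beside 159 nuclei named as glutamatergic neurons, a type not native to the accumbens. The unnamed neuronal clusters 36, 43 and 46 (315, 211 and 160 nuclei) also had the glutamatergic marker Slc17a6 among their leading genes. Naloxone replicate 5 stood apart from the others: its median mitochondrial share was the highest, 0.566%, and its oligodendrocytes fell almost wholly into a cluster that was small in the saline libraries. RNA of neuronal genes was also counted in glia. Penk, an opioid peptide gene of Drd2 neurons, reached 127 CPM in Drd2-like neurons and 159 CPM in microglia, while the Drd2 gene itself stood at 567 CPM in Drd2-like neurons and 8.99 CPM in microglia. Low levels of a neuronal receptor in glia or vessel cells are to be read beside those values.

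Adora2a was highest in Drd2-like neurons among the ranked classes. Its level there was 83.2 ± 8.10 CPM (SD, n = 6), against 2.61 ± 0.326 CPM in Drd1-like neurons. By library the Drd2-like level was 90.8, 85.6 and 92.9 CPM in saline replicates 1 to 3, and 72.0, 81.4 and 76.7 CPM in naloxone replicates 4 to 6. All 6 values lay far above the highest Drd1-like value, 3.11 CPM, and the naloxone libraries were the 3 lowest. The remaining named spiny classes held little of it: 8.08 ± 2.09 CPM in Otof-like neurons, 4.52 ± 3.94 in Drd3-like neurons and 3.08 ± 1.41 in Chst9-like neurons. The interneuron classes lay at 2.71 CPM (somatostatin), 2.38 CPM (cholinergic) and 1.95 CPM (Pthlh), each with at least 1 library at 0. Of nuclei with a median of 8334 UMIs, 48.6% of Drd2-like nuclei held at least 1 Adora2a UMI, against 2.27% of Drd1-like nuclei (median 9255 UMIs). Nuclei with at least 1000 UMIs were also thinned to 1000, here and below, and shallower ones were left out. That left out 1 nucleus of each of these 2 classes, 233 of 4693 astrocytes, 1874 of 11613 oligodendrocytes and 490 of 1542 microglia. After thinning, the Drd2-like and Drd1-like shares were 7.55% (exact 95% interval 6.85% to 8.31%) and 0.302% (0.176% to 0.483%). The share was 0.605% in astrocytes, whose median depth before thinning was 2441 UMIs. The intervals cover counting error only.

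Outside neurons the Adora2a values rested on few molecules. Endothelial nuclei, 320 in all, gave 42.3 ± 44.8 CPM from 20 UMIs, and their 6 libraries ranged from 0 to 128 CPM. Mural nuclei (pericytes and smooth muscle) numbered 222 in all, as few as 14 in a library, and were not ranked. They gave 34 UMIs and 96.8 ± 66.2 CPM, a mean above that of Drd2-like neurons, with 34.4 to 225 CPM by library. Their pooled level was 77.9 CPM, with an exact Poisson interval of 54.0 to 109 CPM. After thinning, 17 of 145 mural nuclei held an Adora2a UMI, 11.7% (exact interval 6.98% to 18.1%), above the share in Drd2-like nuclei at the same depth. The summed level of 7 markers shared by spiny neurons was 3067 CPM in mural nuclei and 8273 CPM in Drd2-like neurons, and the part of neuronal RNA in the mural value was not tested. Microglia lay at 12.5 CPM, oligodendrocytes at 9.62 CPM with naloxone replicate 5 highest at 20.2 CPM, astrocytes at 6.59 CPM, and oligodendrocyte precursors at 4.04 CPM. Among the 14 classes with at least 20 nuclei in every library, Drd2-like neurons ranked first and endothelial cells next, by 40.9 CPM and in 5 of 6 libraries (two-sided exact permutation of the signs of the library differences, p = 0.0938). Among the 9 classes with at least 100 nuclei in every library, a limit chosen after the data were seen, the next class was microglia, 70.7 CPM lower and in 6 of 6 libraries (exact permutation p = 0.0312, the smallest that 6 libraries can give). All neighbours further down this order overlapped. The pair tested was picked by the levels themselves here and for the other 4 receptors, and these p-values are not adjusted.

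**Figure D1:**
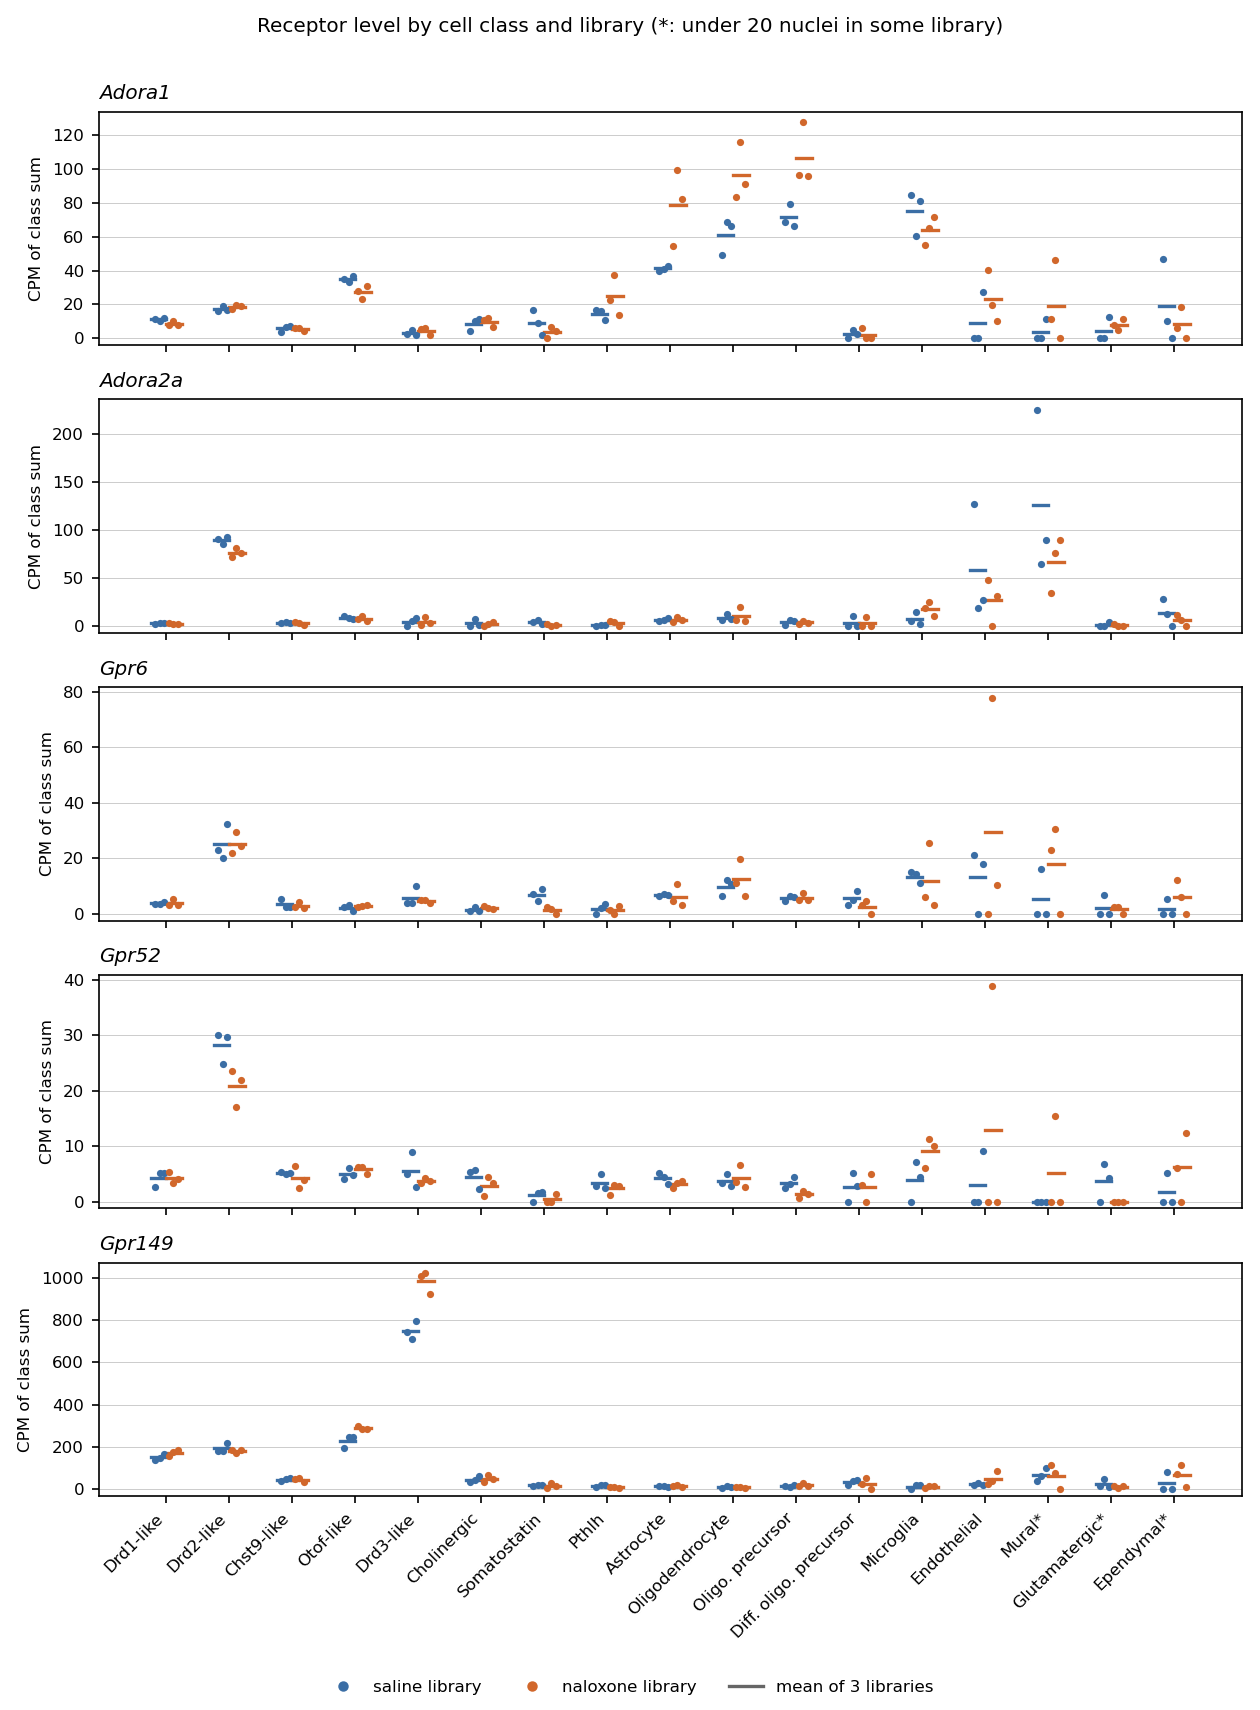
Level of each of the 5 receptors by cell class, in CPM on the vertical axis, with 1 dot per library (blue saline, orange naloxone) and a bar for the mean of 3 libraries; an asterisk marks classes with fewer than 20 nuclei in some library. Adora2a, Gpr6 and Gpr52 are highest among the named neuron classes in Drd2-like cells (means of 83.2, 25.3 and 24.5 CPM), Gpr149 in Drd3-like cells (866 CPM), and Adora1 in oligodendrocyte precursors (89.0 CPM).

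Adora1 stood higher in 4 glial classes than in any named spiny class. It stood at 89.0 ± 22.8 CPM in oligodendrocyte precursors, 79.0 ± 23.2 in oligodendrocytes, 69.7 ± 11.5 in microglia and 60.0 ± 25.2 in astrocytes. Among neurons the highest level was 31.2 ± 4.99 CPM in Otof-like cells, followed by 19.6 ± 9.59 in Pthlh interneurons, 17.8 ± 1.47 in Drd2-like neurons and 9.86 ± 1.63 in Drd1-like neurons. Chst9-like neurons at 5.86 CPM and Drd3-like neurons at 3.86 CPM had the least of the spiny classes. Astrocytes exceeded Otof-like neurons in 6 of 6 libraries, with no overlap between the classes, and all the other neighbours in the order overlapped. Precursors exceeded mature oligodendrocytes by 10.1 CPM, in 6 of 6 libraries (exact permutation p = 0.0312), although the ranges of the classes overlapped. That gap no longer passed the threshold when doublets were kept (5.97 CPM, exact permutation p = 0.125) or when nuclei were classed one by one (8.83 CPM, p = 0.156). Of 10 alternatives 1 passed, and those that left out a library could not pass.

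Differentiating oligodendrocyte precursors, which express Enpp6 and lie between precursors and mature cells, were the exception within the lineage. Only 5 Adora1 UMIs were counted in their 372 nuclei, 2.30 ± 2.73 CPM, with 3 of 6 libraries at 0. At 1000 UMIs per nucleus, an Adora1 UMI was found in 8.56% of precursors (exact interval 7.40% to 9.84%), 0.275% of differentiating precursors (0.00696% to 1.52%) and 7.61% of oligodendrocytes (7.09% to 8.15%). The raw shares were 23.8%, 1.34% and 12.5%, at median depths of 3114, 4123 and 1623 UMIs. The interval in differentiating precursors takes in the shares of Drd3-like neurons, 0.358%, and of Drd1-like neurons, 1.03%. Mybph, a gene that overlaps Adora1 in the RefSeq annotation, was at 5.45 CPM in astrocytes.

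Gpr6, a receptor that is active without a ligand and raises cAMP, was again highest among the named neuron classes in Drd2-like neurons, at 25.3 ± 4.71 CPM. The unnamed spiny cluster 16, described with the spiny clusters, had a higher mean. The region just before its annotated start is shown because a cAMP response element, the site bound by CREB, lies in it; RefSeq (assembly GRCr8) places it at chr20:46075252-46075501 on the minus strand, and the capitals mark that element.
Gpr6: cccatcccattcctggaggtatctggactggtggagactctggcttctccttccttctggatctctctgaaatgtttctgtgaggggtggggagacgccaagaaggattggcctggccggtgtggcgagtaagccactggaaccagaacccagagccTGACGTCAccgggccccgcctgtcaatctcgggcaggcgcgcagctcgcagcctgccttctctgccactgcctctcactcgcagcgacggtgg
The 8 letters TGACGTCA, which read the same on both strands, start 93 bases before the gene, and 1.59% of 33469 RefSeq promoter windows of the same 250 bases hold them. Neither the GC box GGGCGG (in 30.5% of windows, both strands searched) nor the TATA box TATAAA (in 12.9%) was found there, and the window has 62% G and C, against a median of 51.2%. 3 of the 5 receptors have an entry in that promoter table: Adora1, Gpr6 and Gpr52. A match of letters is a description and does not show binding.

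By library, the Drd2-like Gpr6 level was 23.2, 20.2 and 32.5 CPM with saline and 22.1, 29.5 and 24.3 CPM with naloxone. The saline and naloxone libraries overlapped. Drd1-like neurons held 3.81 ± 0.748 CPM, Chst9-like 3.23, Otof-like 2.47 and Drd3-like 5.22 CPM. Microglia held 12.5 CPM, oligodendrocytes 11.1, astrocytes 6.46, precursors 5.78 and differentiating precursors 4.02 CPM, each overlapping its neighbours in the order, and naloxone replicate 5 was the highest of the 6 libraries in microglia and oligodendrocytes, at 25.5 and 19.8 CPM. At 1000 UMIs per nucleus, 2.94% of Drd2-like nuclei (exact interval 2.49% to 3.43%) held a Gpr6 UMI, against 1.27% of oligodendrocytes, 0.897% of astrocytes and 0.462% of Drd1-like nuclei. Penk ran the same way over these classes, at 114 CPM in oligodendrocytes, 72.5 in astrocytes and 23.1 in Drd1-like neurons. Whether the glial Gpr6 molecules came from those nuclei or from free RNA was not tested. The next class after Drd2-like neurons was endothelial, where 8 UMIs gave 21.3 ± 29.1 CPM, a gap of 3.997 CPM (exact permutation p = 0.719). Among the 9 classes with at least 100 nuclei per library the gap to microglia was 12.8 CPM, in 6 of 6 libraries (exact permutation p = 0.0312).

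Gpr52, another receptor that raises cAMP without a ligand, lies inside another gene. In the RefSeq annotation it sits within Rabgap1l (ENSRNOG00000002736), on the same strand, so its counts and those of its host need to be read together. The 250 bases before its start, at chr13:75338408-75338657 on the minus strand of GRCr8, are shown for comparison with Gpr6. They hold none of the 3 motifs and so carry no capitals.
Gpr52: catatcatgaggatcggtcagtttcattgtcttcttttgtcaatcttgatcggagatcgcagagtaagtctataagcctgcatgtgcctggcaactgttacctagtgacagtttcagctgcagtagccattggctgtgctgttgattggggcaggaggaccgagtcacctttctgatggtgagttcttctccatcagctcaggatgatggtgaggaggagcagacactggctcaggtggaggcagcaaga
The absence of these letters in this window says nothing of the factors that act on the gene. The Gpr52 level was 24.5 ± 4.92 CPM in Drd2-like neurons and between 0.787 and 7.99 CPM in the other 13 ranked classes, among them 4.27 ± 1.14 CPM in Drd1-like neurons and 3.66 ± 0.919 in astrocytes. By library the Drd2-like values were 29.96, 24.8 and 29.7 CPM with saline and 23.5, 17.0 and 21.9 CPM with naloxone. The naloxone libraries were the 3 lowest, and the groups did not overlap.

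The host gene had another pattern. Rabgap1l stood at 629 ± 23.4 CPM in Drd2-like neurons, 639 CPM in Otof-like and 626 CPM in Chst9-like neurons, 464 in oligodendrocyte precursors, 436 in Drd1-like and 417 in Drd3-like neurons. In Drd2-like neurons its 6 libraries ran from 585 to 653 CPM, and the saline and naloxone libraries overlapped. Otof-like and Chst9-like neurons, with as much of the host gene, had 5.41 and 4.70 CPM of Gpr52. At 1000 UMIs per nucleus, 2.55% of Drd2-like nuclei and 0.284% of Drd1-like nuclei held a Gpr52 UMI (19.4% and 3.96% before thinning). Endothelial cells, the next class, rested on 3 UMIs, and the gap to it was 16.5 CPM (exact permutation p = 0.0938). The gap to microglia, the next among the 9 larger classes, was 17.98 CPM, in 6 of 6 libraries (exact permutation p = 0.0312).

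Gpr149 was most abundant in Drd3-like neurons, the class named from the dopamine receptor Drd3. Its level there was 866 ± 136 CPM, against 259 ± 38.7 in Otof-like, 187 ± 17.4 in Drd2-like, 162 ± 16.5 in Drd1-like and 45.6 ± 7.21 CPM in Chst9-like neurons. By library the Drd3-like level was 741, 708 and 794 CPM with saline and 1009, 1020 and 923 CPM with naloxone. The saline libraries were the 3 lowest, and the groups did not overlap. Drd3-like neurons exceeded Otof-like neurons by 607 CPM, in 6 of 6 libraries and with no overlap (exact permutation p = 0.0312). Otof-like, Drd2-like and Drd1-like neurons overlapped with their neighbours in the order, and Drd1-like neurons lay above cholinergic interneurons, at 47.6 ± 14.5 CPM, with no overlap. At 1000 UMIs per nucleus, 56.2% of Drd3-like nuclei (exact interval 54.0% to 58.5%) held a Gpr149 UMI, 22.0% of Otof-like, 15.8% of Drd2-like, 13.9% of Drd1-like and 3.59% of Chst9-like nuclei, against 1.04% of oligodendrocytes. Before thinning the Drd3-like share was 87.1% at a median depth of 3112 UMIs, the lowest of the spiny classes. When nuclei were classed one by one, the Drd3-like level was 575 CPM and the gap to Otof-like neurons 339 CPM.

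Gpr149 was spread unevenly within interneurons and stood below the Drd1-like level in every glial class ranked. The cholinergic interneurons came as 2 clusters, with 75.6 CPM in one (212 nuclei) and 14.3 CPM in the other (381 nuclei). Somatostatin interneurons held 17.7 CPM and Pthlh interneurons 12.6 CPM. Differentiating precursors were at 30.5 CPM, precursors at 18.5, astrocytes at 15.5, microglia at 11.9 and oligodendrocytes at 10.3 CPM.

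The receptors also differed among the clusters that make up the Drd2-like class. 3 clusters carried that name: cluster 5 (2619 nuclei), cluster 8 (2131) and cluster 28 (428). Cluster 28 met 3 of 6 Drd2 markers (Drd2, Grik3 and Plxdc1) and also 3 of 5 Otof markers. Clusters 5 and 8 met Drd2, Penk and Oprd1, and no Otof name was a candidate for them. Adora2a was nearly level across them, at 84.1, 84.3 and 72.9 CPM, as was Gpr6, at 26.7, 23.7 and 26.0 CPM. Gpr52 was at 26.0, 23.1 and 22.8 CPM. Adora1 and Gpr149 were not level. Adora1 stood at 12.3 ± 1.87 CPM in cluster 5, 15.99 ± 2.63 in cluster 8 and 60.9 ± 11.3 in cluster 28, whose libraries held 40.4, 55.4 and 64.6 CPM with saline and 66.7, 67.7 and 70.8 CPM with naloxone. The lowest library of cluster 28 was above the highest of cluster 8, 19.2 CPM. Gpr149 was at 131 ± 9.46 CPM in cluster 8, 211 ± 22.4 in cluster 5 and 341 ± 64.9 in cluster 28, and its ranges in clusters 5 and 28 overlapped. Among Drd1-like nuclei, Gpr149 was at 181 CPM in cluster 1 and 116 CPM in cluster 10. The unnamed spiny cluster 6 (2231 nuclei) resembled the Drd1-like clusters in Adora2a (4.31 CPM), Gpr52 (2.28 CPM) and Gpr149 (176 CPM), and held 8.69 CPM of Gpr6. It met 4 of 7 Drd1 markers (Drd1, Pdyn, Isl1 and Chrm4), the same that cluster 1 met. It stayed unnamed because Drd3, a marker of another class, was among its leading genes. Its nuclei are not in the Drd1-like values, where Gpr6 was at 3.81 CPM. These cluster values are descriptions, since the clusters were drawn from the same nuclei.

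Another unnamed spiny cluster, cluster 16 (1358 nuclei), held the highest Gpr6 mean of the neuronal clusters. It was shallow, with a median of 1562 UMIs per nucleus, mitochondrial genes among its leading genes and a summed level of 7 oligodendrocyte markers of 2583 CPM, against 159 CPM in Drd2-like neurons. Gpr6 stood at 35.2 ± 17.0 CPM from 112 UMIs, and Adora2a at 51.8 ± 16.1 CPM from 170 UMIs, the latter below the Drd2-like level. Gpr52 was at 13.5, Adora1 at 27.1 and Gpr149 at 93.6 CPM. Of its 1047 nuclei with at least 1000 UMIs, thinned to that depth, 3.25% held Gpr6 (exact interval 2.26% to 4.51%) and 4.58% held Adora2a. The Gpr6 interval overlaps that of Drd2-like nuclei. By library Gpr6 was at 57.8, 37.8 and 51.9 CPM with saline and 16.5, 27.3 and 20.1 CPM with naloxone. The groups did not overlap, with a log2 difference of -1.12 ± 0.33 (edgeR unadjusted p = 0.0023, adjusted p = 0.735) in a fit added after the data were seen. In that fit 0.0% of genes were called by edgeR, 397 had an unadjusted p under 0.05, and the difference ran from -1.37 to -0.95 with 1 library left out. The part of the oligodendrocyte and mitochondrial RNA in these values was not tested.

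**Figure D2:**
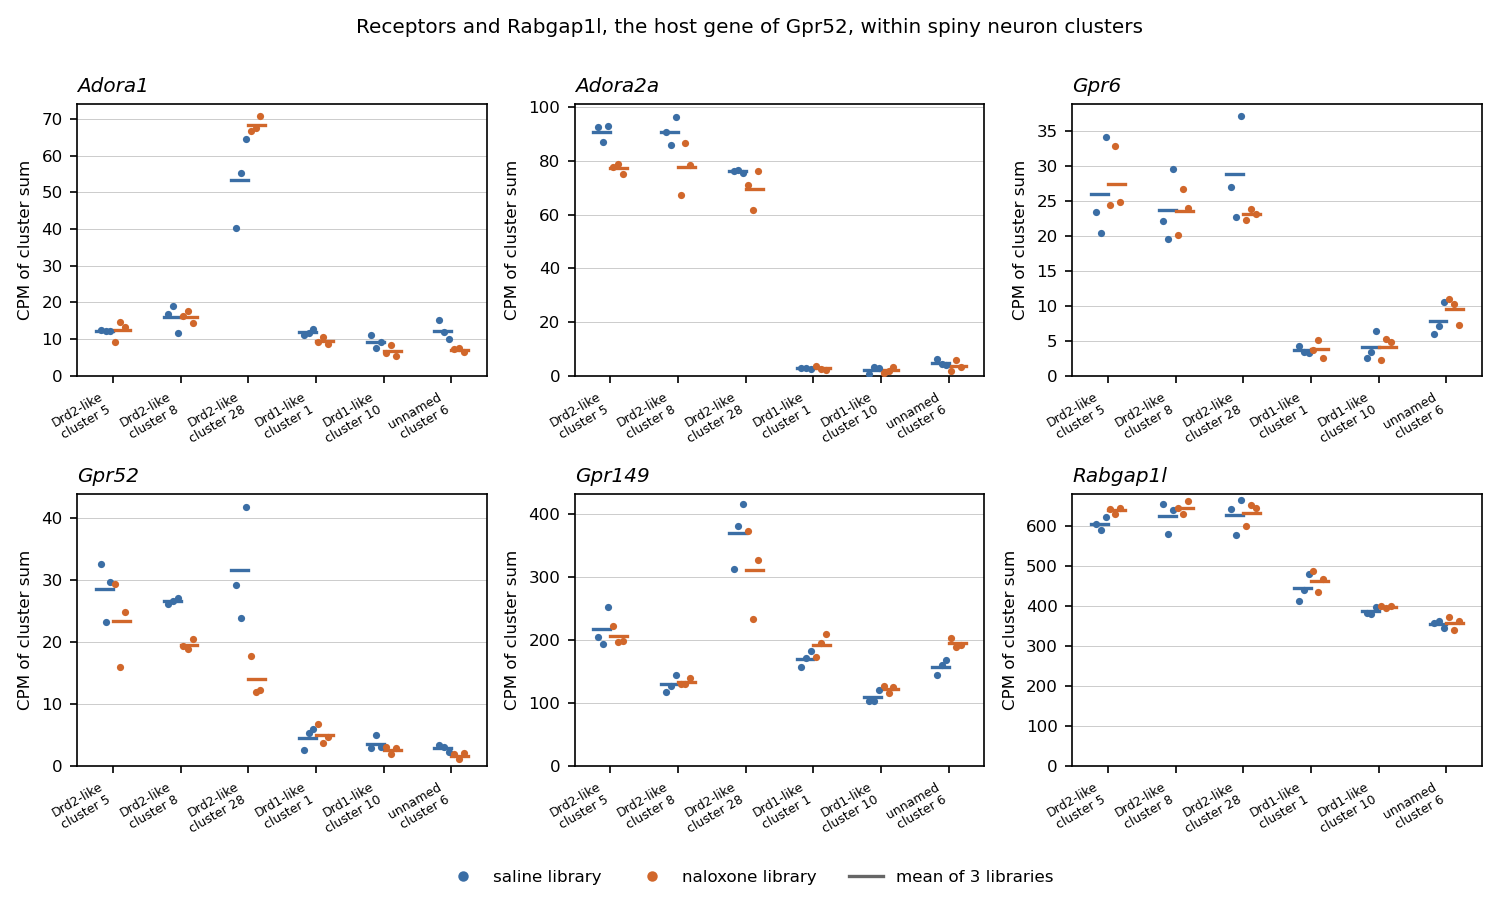
Levels of the 5 receptors and of Rabgap1l, the host gene of Gpr52, in CPM on the vertical axis, in the 3 Drd2-like clusters (5, 8 and 28), the 2 Drd1-like clusters (1 and 10) and the unnamed spiny cluster 6, with 1 dot per library (blue saline, orange naloxone). Adora2a, Gpr6 and Gpr52 separate the Drd2-like clusters from the rest, while Adora1 is highest in cluster 28 (mean of 60.9 CPM).

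Drd2-like and Drd1-like neurons of the same libraries were then tested against each other, with edgeR's quasi-likelihood test and the library as a block. The Drd1-like sums leave out the unnamed cluster 6, which met 4 of 7 Drd1 markers and held 8.69 CPM of Gpr6. Of 13252 genes tested, 25.7% differed at an adjusted p under 0.05, and 12.9% were higher in Drd2-like neurons. All 5 receptors were higher there. The log2 difference was 4.98 ± 0.07 (SE) for Adora2a (edgeR adjusted p = 5.99e-22), 2.71 ± 0.09 for Gpr6 (adjusted p = 6.14e-16) and 2.49 ± 0.11 for Gpr52 (adjusted p = 1.46e-13). It was smaller for Adora1, 0.85 ± 0.10 (edgeR adjusted p = 5.26e-07), and smallest for Gpr149, 0.20 ± 0.05 (adjusted p = 0.00162). The Gpr149 call was lost when nuclei were classed one by one on the markers (0.12, edgeR adjusted p = 0.153). Rabgap1l differed by 0.52 ± 0.03, less than the gene within it.

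The genes beside the receptors in the RefSeq annotation were tested the same way. Of 13 that overlap or adjoin a receptor, 9 passed the filter, 4 were higher in Drd2-like neurons and 1 was lower. Of all genes tested, 25.7% were called and 12.9% were called higher. Unlike the receptors, these neighbours were not kept out of the genes open to the clustering. Upb1, the gene next to Adora2a, which encodes an enzyme of pyrimidine breakdown, had a log2 difference of 4.59 ± 0.24 (edgeR adjusted p = 2.34e-12). Its level was low, 6.66 ± 1.28 CPM in Drd2-like neurons (314 UMIs, 4.94 to 8.57 CPM by library) against 0.275 CPM in Drd1-like neurons (15 UMIs), and no class with at least 20 nuclei per library other than Drd2-like had more than 0.697 CPM. Like Adora2a, Upb1 was thus highest in Drd2-like neurons among these classes. Upb1 had 0 UMIs in endothelial cells and microglia, where Adora2a stood at 42.3 and 12.5 CPM. In those classes 3 UMIs would have made 5.63 and 1.35 CPM. With Upb1 so low in its top class, those counts of 0 cannot show whether the genes run alike there. In oligodendrocytes Upb1 had 3 UMIs, 0.141 CPM pooled (exact Poisson interval 0.0290 to 0.411 CPM), where Adora2a stood at 9.62 CPM. The part of Adora2a RNA in the Upb1 counts was not tested. Specc1l, on the other side of Adora2a, differed by 0.07 (edgeR adjusted p = 0.176). Fig4, next to Gpr6, was higher by 0.58, at 92.6 ± 5.87 CPM in Drd2-like and 61.7 ± 5.14 CPM in Drd1-like neurons, and Wasf1, on its other side, by 0.13. Rc3h1, next to Gpr52, had a log2 difference of -0.16. In the naloxone fits 1 of 98 tests of these genes was called, against 0.282% of tests over all genes. It was Cacybp, on the other side of Gpr52, in oligodendrocytes (-0.82, edgeR adjusted p = 0.0177).

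Detection in single Drd2-like nuclei was compared at 5000 UMIs per nucleus, a depth chosen after the data were seen, which kept 4540 nuclei and left out 638. All 10 pairs of receptors were examined, and the share with one receptor was higher in nuclei holding the other in 2 to 6 of 6 libraries, depending on the pair. At that depth 32.9% held Adora2a, 50.7% Gpr149, 11.9% Gpr6, 11.54% Gpr52 and 8.39% Adora1. Adora2a with Gpr149 and Adora1 with Gpr52 had the lowest tally, 2 of 6. Gpr6 was found in 12.7% of the nuclei with an Adora2a UMI and 11.6% of those without, with the first share higher in 3 of 6 libraries. Gpr52 was found in 12.6% and 11.1%, higher in 5 of 6 libraries. The share with both Adora2a and Gpr6 was 4.10%, and 11.6% before thinning. For Gpr149 and Gpr52, 53.2% of nuclei with a Gpr52 UMI held Gpr149, against 50.5% of those without, higher in 6 of 6 libraries.

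Genes whose class levels ran most like each receptor were ranked over the 14 classes by Pearson's r of log2(CPM + 1), as a description over classes that share 6 libraries. For Adora2a the closest of 12772 genes were P2ry1 (r = 0.905) and Hpca (0.855), then Fam204a, Foxp1 and Ly75. The last 3 were highest in endothelial cells, where Adora2a rested on 20 UMIs. Gpr6 ran closest to Nts, the neurotensin gene (0.862), and Penk (0.824), then Foxp1, Ppp1ca and Fam204a. Penk is a marker of the Drd2-like class and was highest in microglia. Foxp1, Ppp1ca and Fam204a were highest in endothelial cells, where Gpr6 rested on 8 UMIs. Gpr52 ran closest to Calcr, the calcitonin receptor gene (0.879), then Hpca, Rasd2, Arpp19 and P2ry1. For Gpr149 the closest were Drd3 (0.949), which is a marker of its top class, and Lgr6 (0.914), then Rasgrp1, Kcns2 and Sv2c. For Adora1 they were Lrrc61 (0.839), Ankrd16, Spred1, Ubac2 and Errfi1. Among the receptors, Adora2a ran with Gpr6 (0.899) and Gpr52 (0.837), and the lowest r was that of Adora1 with Gpr149 (-0.46). That value is over all 14 classes, glia and neurons together. Drd3-like neurons had the most Gpr149 and the least Adora1 of the spiny classes. Otof-like, Drd2-like and Drd1-like neurons stood in the same order for both genes.

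Naloxone was compared with saline in each of the 14 classes, on the summed counts of 3 against 3 libraries. Of 70 receptor and class pairs, 35 passed the filter on low counts, and 1 differed at an adjusted p under 0.05 with edgeR: Adora1 was higher with naloxone in astrocytes. DESeq2 called 2 pairs, Adora1 in astrocytes and in oligodendrocytes, and 10 pairs had an unadjusted edgeR p under 0.05. Over all genes and the 14 classes, 0.282% of tests were called. By class the share was 0.07% in Chst9-like neurons, 0.0118% in cholinergic interneurons, 0.0198% in differentiating precursors and 0.258% in microglia, where 0 receptors were called by edgeR or DESeq2 and none had an unadjusted p below 0.05. It was 0.0% in Pthlh and somatostatin interneurons and in endothelial cells, and Adora1 in Pthlh interneurons had an unadjusted edgeR p of 0.0451 (adjusted p = 0.742).

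In astrocytes Adora1 stood at 39.9, 40.9 and 43.0 CPM in the saline libraries and 54.3, 99.7 and 82.3 CPM in the naloxone libraries. The groups did not overlap, and the naloxone libraries spread far more (SD 22.9 against 1.58 CPM). The log2 difference was 0.96 ± 0.18 (SE; edgeR adjusted p = 0.0269), in a class where 0.867% of genes were called and 0.686% called higher. The call was lost when any of saline replicates 1, 2 and 3 or naloxone replicate 6 was left out (edgeR adjusted p = 0.119, 0.0903, 0.102 and 0.0903), with the log2 difference between 0.79 and 1.16 over the 6 omissions. It held without naloxone replicate 5 (log2 0.79, edgeR adjusted p = 0.032).

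The astrocyte class joins 2 clusters with different Adora1 levels, 37.4 CPM in cluster 2 and 121 CPM in cluster 18. Cluster 18 made up 22.0%, 15.99% and 26.6% of saline astrocytes and 28.8%, 27.8% and 33.5% of naloxone astrocytes. All 3 naloxone shares were above the saline shares. Within cluster 2, Adora1 was at 26.0, 26.3 and 21.4 CPM with saline and 26.1, 70.5 and 54.1 CPM with naloxone, a log2 difference of 1.06 ± 0.27 (edgeR adjusted p = 0.127; 0.409% of genes called). Within cluster 18 it was at 88.5, 113 and 102 CPM with saline and 118, 170 and 136 CPM with naloxone, a difference of 0.49 ± 0.18 (edgeR adjusted p = 0.426; 0.325% of genes called). The groups overlapped in cluster 2 and did not in cluster 18, and neither cluster by itself passed the threshold (fits added after the data were seen). The summed level of 7 astrocyte markers in the class also moved with the group, from 12524 to 12939 CPM with saline to 14412 to 15036 CPM with naloxone, and that of 6 microglial markers from 75.9 to 85.4 CPM to 93.6 to 125 CPM. Their part in the Adora1 difference was not tested.

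In the oligodendrocyte lineage the naloxone libraries also had the higher Adora1 values, short of the threshold. Oligodendrocytes held 49.0, 68.6 and 66.1 CPM with saline and 83.3, 116 and 91.0 CPM with naloxone, with no overlap, a log2 difference of 0.63 ± 0.14 (edgeR adjusted p = 0.0603; DESeq2 adjusted p = 0.0179), in a class where 0.845% of genes were called. Precursors held 68.8, 79.3 and 66.3 CPM with saline and 96.4, 128 and 96.0 CPM with naloxone, again with no overlap, a difference of 0.57 ± 0.14 (edgeR adjusted p = 0.109), with 0.324% of genes called. In both classes naloxone replicate 5 was the highest library. The make-up of the oligodendrocyte class changed with the group: cluster 4 held 2.30%, 3.82% and 3.92% of saline oligodendrocytes and 41.4%, 87.2% and 42.9% of naloxone oligodendrocytes. Adora1 was at 102 CPM in cluster 4 and 69.4 CPM in cluster 0, the main saline cluster. Within cluster 0 the log2 difference was 0.11 and within cluster 4 it was 0.51 (edgeR adjusted p = 0.994 and 0.768), where 0.05% and 0.214% of genes were called.

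**Figure D3:**
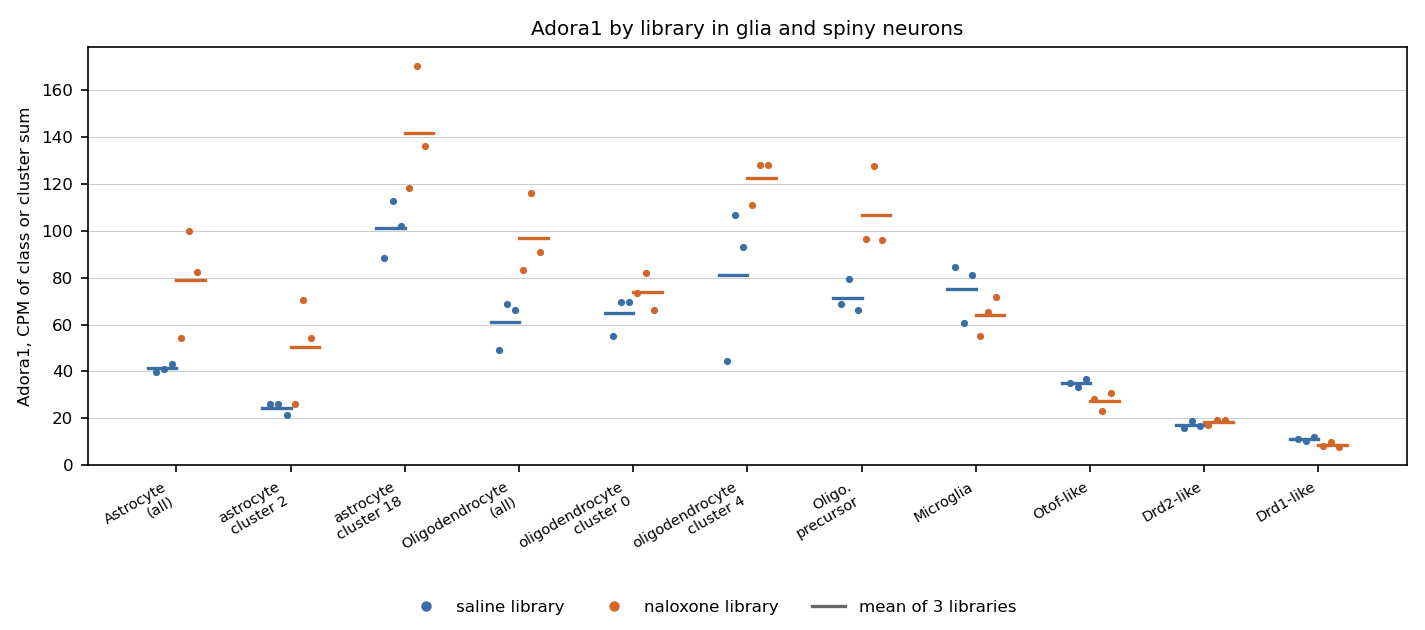
Adora1 level in each library, in CPM on the vertical axis, for astrocytes and oligodendrocytes as whole classes and by cluster, for oligodendrocyte precursors, microglia, and Otof-like, Drd2-like and Drd1-like neurons (blue saline, orange naloxone). The naloxone libraries lie above the saline libraries in astrocytes, oligodendrocytes and precursors, and below them in Otof-like and Drd1-like neurons.

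Drd1-like and Otof-like neurons had lower Adora1 values with naloxone, while Pthlh interneurons had the higher ones. Drd1-like neurons held 11.1, 10.4 and 11.8 CPM with saline and 8.10, 9.98 and 7.75 CPM with naloxone, with no overlap, a log2 difference of -0.37 ± 0.15 (edgeR adjusted p = 0.336). In that class 0.193% of genes were called by edgeR, while 0 of the 5 receptors were (DESeq2 called 0, and 1 had an unadjusted edgeR p below 0.05). Otof-like neurons held 35.1, 33.2 and 36.8 CPM with saline and 28.04, 23.2 and 30.9 CPM with naloxone, without overlap, a difference of -0.35 ± 0.16 (edgeR adjusted p = 0.555). Pthlh interneurons held 16.7, 15.97 and 10.6 CPM with saline and 22.6, 37.4 and 14.0 CPM with naloxone, with overlap, a difference of 0.77 ± 0.36 (edgeR adjusted p = 0.742). In Drd2-like neurons the difference was 0.13 and in microglia -0.20, with overlapping groups. In the unnamed spiny cluster 6 it was -0.79 ± 0.23 (edgeR unadjusted p = 0.00351, adjusted p = 0.203).

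Because a call in astrocytes and none in neurons does not show that they differ, the naloxone effect on Adora1 in 4 glial classes was set against that in Drd1-like neurons, in terms added after the data were seen. The effect was higher by 1.34 ± 0.19 on the log2 scale in astrocytes (edgeR adjusted p = 0.00534), where 0.186% of genes had such a difference called. It was higher by 1.02 ± 0.17 in oligodendrocytes (edgeR adjusted p = 0.00655; 0.454% of genes called) and by 0.94 ± 0.19 in precursors (adjusted p = 0.0281; 0.124% called). In microglia the term was 0.24 ± 0.33 (edgeR adjusted p = 0.974; 0.171% called). The 4 terms share the Drd1-like sums, whose own log2 difference was -0.37. The part of the class make-up by cluster in the terms was not tested. The astrocyte term was called with any 1 library left out, the oligodendrocyte term was lost without saline replicate 3 (edgeR adjusted p = 0.0607), and the precursor term was kept only without saline replicate 2 (adjusted p = 0.00998).

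Adora2a and Gpr52 had lower values with naloxone in Drd2-like neurons, and neither passed the threshold. There 0.566% of genes were called by edgeR and 0 of the 5 receptors. DESeq2 also called 0, and 2 had an unadjusted edgeR p below 0.05. The log2 difference was -0.21 ± 0.08 for Adora2a (edgeR adjusted p = 0.280) and -0.42 ± 0.14 for Gpr52 (adjusted p = 0.216). Gpr52 was at 26.1, 26.6 and 27.2 CPM with saline and 19.4, 18.8 and 20.5 CPM with naloxone in cluster 8, with no overlap (log2 -0.43, edgeR adjusted p = 0.296; 0.431% of genes called). In cluster 28 it was at 29.2, 23.9 and 41.9 CPM with saline and 17.8, 11.9 and 12.3 CPM with naloxone, a difference of -1.18 ± 0.36 (edgeR adjusted p = 0.0905), in a cluster where 2.67% of genes were called. Rabgap1l, its host, differed by 0.08 in Drd2-like neurons. Gpr6 differed by 0.02 there, with an SE of 0.16, and Adora2a in cluster 5 was at 92.5, 86.9 and 93.1 CPM with saline and 77.7, 79.0 and 75.3 CPM with naloxone (log2 -0.22, edgeR adjusted p = 0.323; 0.552% of genes called).

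Gpr149 had higher values with naloxone in Drd3-like and Otof-like neurons. In Drd3-like neurons, where it was the only receptor to pass the filter, the log2 difference was 0.41 ± 0.10 (edgeR unadjusted p = 0.000268, adjusted p = 0.208), and 0.0335% of genes were called. DESeq2 gave an adjusted p of 0.0887. The summed level of the 4 Drd3 markers in that class was 1941 to 2222 CPM with saline and 2232 to 2827 CPM with naloxone, and its part in the Gpr149 difference was not tested. In Otof-like neurons Gpr149 was at 193, 246 and 249 CPM with saline and 298, 283 and 285 CPM with naloxone, a difference of 0.34 ± 0.10 (edgeR adjusted p = 0.304), with 0.0484% of genes and 0 of 4 receptors called. DESeq2 called 0 there, and 2 had an unadjusted edgeR p below 0.05. Gpr149 differed by 0.17 in Drd1-like and -0.07 in Drd2-like neurons. In the unnamed spiny cluster 6 it was higher with naloxone by 0.31 ± 0.09 (edgeR unadjusted p = 0.00252, adjusted p = 0.176).

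**Figure D4:**
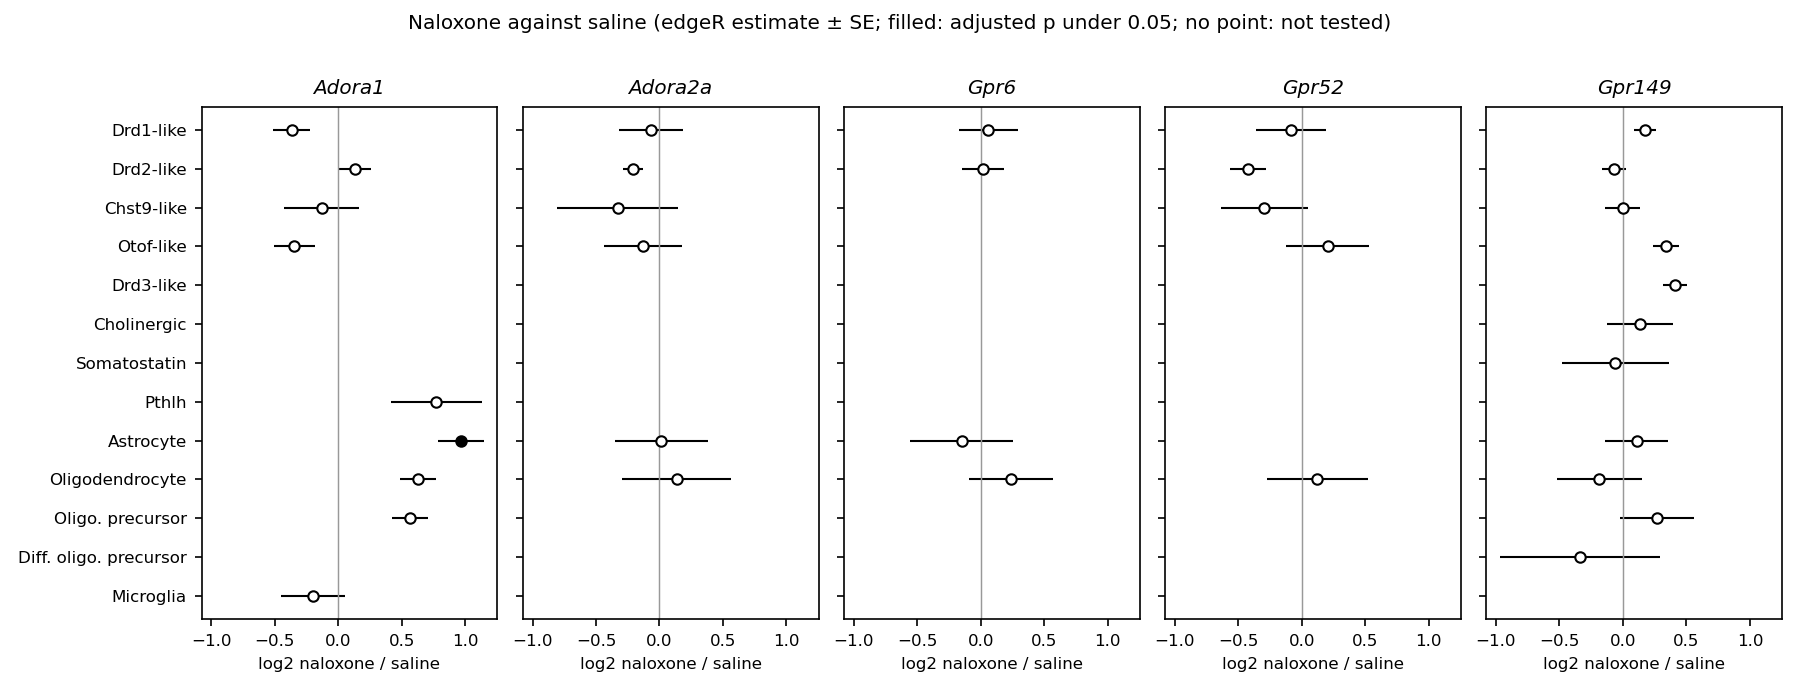
Log2 difference between naloxone and saline (horizontal axis, edgeR, bars are ± SE) for each receptor in each class where it passed the filter on low counts; a filled point has an adjusted p under 0.05. The only filled point is Adora1 in astrocytes, at 0.96.

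The naloxone effect was also compared between Drd2-like and Drd1-like neurons. With edgeR 0 of the 5 receptors were called, 2 had an unadjusted p under 0.05, DESeq2 called 0, and 1.04% of all genes were called. The differences were -0.25 ± 0.07 for Gpr149 (edgeR adjusted p = 0.0833), 0.50 ± 0.17 for Adora1 (adjusted p = 0.214), -0.31 for Gpr52, -0.11 for Adora2a and -0.02 for Gpr6. The Gpr149 term passed without naloxone replicate 4 (-0.32, edgeR adjusted p = 0.00369). Over all nuclei of a library summed together, 0.0346% of genes and 0 of the 5 receptors were called by edgeR, with 2 at an unadjusted p under 0.05: Gpr52 at -0.47 ± 0.10 (edgeR adjusted p = 0.138; DESeq2 adjusted p = 0.00765) and Adora2a at -0.47 ± 0.16 (edgeR adjusted p = 0.265). In these sums, fewer Drd2-like nuclei and less RNA in each cannot be told apart. Drd2-like neurons were 9.86%, 10.0% and 9.10% of the nuclei with saline and 6.56%, 9.48% and 7.18% with naloxone.

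Of the genes that make, move and remove adenosine, 17 of 18 listed were measured. Between Drd2-like and Drd1-like neurons, 2 of the 12 tested were higher in Drd2-like cells, Adk (log2 1.57) and the ecto-enzyme Nt5e (0.38), and 2 were lower, Pnp (-0.52) and the transporter Slc29a1 (-0.75). The list's median was -0.07, against 0.00 for all genes. In that comparison 25.7% of all genes were called and 12.9% were called higher. Over the 14 naloxone fits, 5 of 105 tests (4.76%) were called by edgeR, against 0.282% over all genes. The list was chosen with earlier results of these data known, so that share is no test of the list. Entpd3 was called in both spiny types. All genes were called at 0.193% in Drd1-like neurons, 0.566% in Drd2-like neurons, 0.867% in astrocytes and 0.845% in oligodendrocytes, the classes that held the calls. Entpd3, an enzyme that cleaves extracellular ATP, fell in both spiny types: from 49.0, 46.7 and 50.2 CPM with saline to 32.2, 29.8 and 30.8 CPM with naloxone in Drd2-like neurons (log2 -0.64, edgeR adjusted p = 0.00695), and from 48.3, 45.2 and 44.9 CPM to 32.5, 30.4 and 33.6 CPM in Drd1-like neurons (-0.52, adjusted p = 0.0439). Nt5e, which forms adenosine from AMP, rose in oligodendrocytes, from 297, 329 and 281 CPM to 460, 764 and 504 CPM (log2 0.91, edgeR adjusted p = 0.0140). The transporter Slc29a3 rose there too (0.63, edgeR adjusted p = 0.0177), and Pnp, which cleaves inosine, fell in astrocytes (-0.52, adjusted p = 0.0408). The shift of oligodendrocytes between clusters given above moved with the Nt5e and Slc29a3 values, and the larger share of cluster 18 and the higher astrocyte marker level with naloxone moved with the Pnp values (604, 513 and 654 CPM with saline, 359, 409 and 432 CPM with naloxone). Their part in these differences was not tested.

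Of the cAMP pathway through which these receptors signal, all 26 listed genes were measured, and Gnas under a pair of identifiers. Between Drd2-like and Drd1-like neurons 11 of 27 tests were higher and 6 lower, with a median of 0.07, where 25.7% of all genes were called. The phosphodiesterase Pde4b (log2 1.84), the stimulatory G protein gene Gnas (1.18 and 0.88) and Pde4d (0.70) were higher in Drd2-like neurons. The cyclase Adcy2 (-3.90), the inhibitory G protein gene Gnai1 (-0.82) and Adcy1 (-0.53) were lower. Smaller differences were called for Gnao1 (0.34), Rgs9 (0.31), Gng7 (0.27), Pde1b (0.21), Pde10a (0.20), Ric8b (0.10), Adcy9 (0.09), Prkacb (-0.25), Adcy5, the main striatal cyclase (-0.13), and Prkar2b (-0.09). In the naloxone fits 0 of 339 tests were called by edgeR, against 0.282% over all genes, with 50 at an unadjusted p under 0.05 and 1 called by DESeq2. Pde7b was called in the comparison of naloxone effects between the spiny types (0.27, edgeR adjusted p = 0.00122), where 1.04% of all genes were called. Of 36 other orphan receptors of brain, 34 were measured. Between the spiny types, where 25.7% of all genes were called, 3 of 25 were higher in Drd2-like neurons, Gpr63 (0.74), Gpr137 (0.52) and Gpr158 (0.46). Another 5 were lower, Gpr139 (-3.24), Gpr39 (-1.99), Gpr26 (-1.41), Gpr176 (-0.89) and Gpr101 (-0.58), and the median was -0.04. In the naloxone fits 0 of 154 were called by edgeR, against 0.282% over all genes, with 22 at an unadjusted p under 0.05 and 2 called by DESeq2. The Gpr6, Gpr52 and Adora2a differences between the spiny types, from 2.49 to 4.98, were larger than that of any gene called higher in these 3 lists.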

How the data were processed

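The 5 receptors, the markers and the gene lists were chosen with earlier results of these data known. Nuclei were isolated from frozen punches of nucleus accumbens and made into libraries with the Chromium GEM-X 3' v4 kit. The deposited values are UMI counts per gene and barcode, which the authors made with Cell Ranger 9.0.1 on mRatBN7.2, per the submitters' processing notes, which also name Seurat 5.2.1 and R 4.4.0. The annotation, and whether intronic reads were counted, are not given in the sources used here. The labels state 44592 nuclei and about 23000 read pairs per nucleus, and the files hold 64260 barcodes, of which 61609 had at least 500 genes and at most 5% mitochondrial counts. Simulated-doublet scores removed 2649 of those (4.30%), and 58960 were used.

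Counts were clustered with 3000 variable genes, 40 principal components, 15 neighbours and Leiden resolution 1 (leidenalg 0.10.2, Python 3.11.15), which gave 58 clusters, named from the marker lists. Class names are rebuilt here and may differ from the study's. UMIs were summed per library and class, for classes with at least 20 nuclei in every library, and tested with edgeR 4.0.16 (quasi-likelihood, TMM factors, filterByExpr, Benjamini-Hochberg over all genes tested, threshold 0.05) in R 4.3.3. DESeq2 1.42.0 was an alternative, with other scaling factors, no filter, at least 1000 genes per nucleus, doublets kept, resolution 0.5, nuclei classed one by one and each library left out. Replicates of 1 group differed by 10.6 to 50.9 times the sampling noise (chi-square per degree of freedom over 6 pairs), so no library was counted as a copy. The edgeR step was tested on simulated counts. The labels give no batch or date.

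Named genes were the 5 receptors, the 5 genes most like each in class levels (at least 10 CPM in 1 class), list genes called in a fit of spiny classes, and genes overlapping or next to a receptor in RefSeq. Called list genes of glia were added after their values were seen. The receptor and class pairs followed across alternatives were picked by their unadjusted p. 1 gene of the list of other orphan receptors is not reported here and was left out of its counts.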

Additional observations from a re-analysis of the deposited data

Results flagged for a closer look

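The naloxone effect on Adora1 differed from that in Drd1-like neurons by a test of the difference itself in astrocytes, oligodendrocytes and oligodendrocyte precursors, and did not pass the threshold in microglia (0.237 on the log2 scale, edgeR adjusted p = 0.974). The 4 terms were chosen after the data were seen. In astrocytes the effect exceeded that in Drd1-like neurons by 1.342 on the log2 scale, the difference was between 1.25 and 1.497 with any 1 library left out, and the edgeR adjusted p was then between 0.000989 and 0.0483. In oligodendrocytes the effect was higher by 1.015, and by 0.914 to 1.14 with 1 library left out, with an edgeR adjusted p between 0.0013 and 0.0607. In oligodendrocyte precursors it was higher by 0.9428, and by 0.840 to 1.09 with 1 library left out, with an edgeR adjusted p between 0.00998 and 0.132, under the threshold in 1 of the 6 omissions. The 4 terms share the Drd1-like sums and are not independent of each other. Drd1-like neurons had a log2 difference of -0.37 of their own, which enters each term, against 0.13 in Drd2-like neurons. The make-up of the astrocyte and oligodendrocyte classes moved with the group, as given above. Within oligodendrocyte clusters 0 and 4 the log2 differences between naloxone and saline were 0.11 and 0.51 (edgeR adjusted p = 0.994 and 0.768). The part of class make-up in the terms was not tested.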

How the results depend on the processing

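No paired analysis was possible because the replicate numbers, 1 to 3 and 4 to 6, are not shared between the groups. All 5 receptors were called in Drd2-like against Drd1-like neurons under each alternative but the one that classed nuclei one by one, which called 4. For naloxone, 1 receptor and class pair was called, and DESeq2 called 2, no filter on low counts 4 (Adora1 in astrocytes, oligodendrocytes and precursors, and Gpr52 in Drd2-like neurons, edgeR adjusted p = 0.0386), and single libraries left out 0 to 2. Over all nuclei 0 receptors were called, with 1 by DESeq2 and 0 to 1 with a library left out (Adora2a without naloxone replicate 5). For the difference in naloxone effect between Drd2-like and Drd1-like neurons 0 were called, with 1 under no filter (Gpr149, edgeR adjusted p = 0.00986) and 0 to 1 with a library left out. The sign of that difference turned for Gpr6 with DESeq2 (0.00628), and with libraries left out it ran from -0.13 to 0.137 for Gpr6 and from -0.30 to 0.00303 for Adora2a. The cause was not tested.

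Of 70 class levels, 17 of 665 alternative values moved by more than the spread between libraries. Classing nuclei one by one gave Adora1 19.7 CPM in Drd2-like, 8.27 in Chst9-like and 11.1 in Drd3-like neurons, Adora2a 2.00 in Drd1-like neurons, Gpr52 3.73 in precursors and Gpr149 575 in Drd3-like neurons. Keeping doublets gave Adora1 7.45 and Gpr149 54.1 CPM in Chst9-like neurons, Gpr6 5.06 in Drd1-like neurons and Gpr149 17.6 in Pthlh interneurons. Resolution 0.5, which joined Otof-like to Chst9-like neurons and so gave no Otof-like value, gave Chst9-like levels of 15.96 (Adora1), 5.10 (Adora2a) and 127 CPM (Gpr149), Gpr6 4.89 in Drd1-like and 0.805 in cholinergic neurons, and Gpr149 69.4 in cholinergic and 84.6 in endothelial cells. The gap between precursors and oligodendrocytes in Adora1 was 8.11 to 12.0 CPM with a library left out, where the exact permutation p cannot go below 0.0625, and 5.97 with doublets, 8.81 at resolution 0.5 and 8.83 with nuclei classed one by one. The gap of Gpr149 was 581 to 636 CPM with a library left out. Resolution 0.5 and the limit of 100 nuclei brought the gap of Drd2-like neurons past the threshold for Adora2a (47.2 and 70.7 CPM), Gpr6 (11.52 and 12.8) and Gpr52 (17.2 and 17.98).

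Counts of called genes depended on the tool and the filter: 25 in Drd1-like neurons became 80 with DESeq2 and 356 with no filter, 71 in Drd2-like neurons 135 and 468, 96 in astrocytes 98 and 322, 96 in oligodendrocytes 158 and 392, 31 in precursors 18 and 81, 16 in microglia 15 and 63, 8 in Chst9-like neurons 17 and 138, 5 in Otof-like 3 and 65, 3 in Drd3-like 1 and 39, and 6 over all nuclei 383 and 41. With 1 library left out the counts were 1 to 69 in Drd1-like and 20 to 107 in Drd2-like neurons, 16 to 125 in astrocytes, 34 to 104 in oligodendrocytes, 5 to 45 in precursors, 2 to 45 in microglia and 0 to 244 over all nuclei. For the difference in naloxone effect 138 became 27 and 248, and for Drd2-like against Drd1-like neurons 3406 became 2174 and 3561. Depth limits the endothelial and mural values, which rest on 1 to 34 UMIs of a receptor.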
